A study of Homo sapiens with 12 samples.

Results

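Cellular zinc is buffered by metallothioneins, small cysteine-rich proteins that bind zinc and other metals, and is moved across membranes by 2 transporter families. Exporters of the SLC30 (ZnT) family lower cytosolic zinc, and importers of the SLC39 (ZIP) family raise it. MTF1, a zinc-finger transcription factor, senses free zinc and binds metal response elements in the promoters of metallothionein genes and of SLC30A1, the plasma membrane exporter. Electrophiles and oxidants can release zinc from cysteine thiols, so metallothionein genes are also known as stress-responsive genes.

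The 9 genes described are MTF1, the metallothionein genes MT1X, MT2A, MT1E and MT1F, the exporter gene SLC30A1, and the importer genes SLC39A6, SLC39A10 and SLC39A14. They were chosen by symbol from a table of 23615 genes, and all 9 were present. The choice was made with earlier results on the counts and FPKM values of these same libraries in view, and it names no contrast. Their values are therefore a description, and an adjusted p of theirs is not independent evidence. A test was possible for 8 of them. MT1E was too low to judge, and MT1F passed the filter on low counts but was too low for its differences to be read.

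RNA was sequenced from HEK293T, a human embryonic kidney cell line, in 6 groups of 2 biological replicates. In 3 groups the cells carried a hairpin against HuR (shHuR), the RNA-binding protein encoded by ELAVL1, and in 3 groups a control hairpin (shControl). Each line was left untreated, given 25 µM HNE(alkyne), a tagged form of the lipid-derived electrophile 4-hydroxynonenal, or given 225 µM H2O2, both for 18 h. All groups shared lentiviral transduction and puromycin selection. Each line was a population made with a single hairpin, so the effect of the knockdown and other differences between the 2 populations cannot be told apart. The series text calls the replicates biological without saying whether they were separate cultures, so p-values measure the spread between these samples.

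Libraries held 24855946 to 29907258 counts. ELAVL1 was lower in every shHuR library (69.3 to 74.5 CPM) than in every shControl library (86.0 to 99.4 CPM). CPM is the count scaled to the library's TMM-adjusted total. In bulk RNA, fewer cells with a transcript and less of it per cell cannot be told apart. HMOX1, a gene known to rise with HNE, rose over both lines (log2 fold change 1.44, SE 0.0961, edgeR adjusted p = 9.83e-06). Of genes known from HEK293 lines, VIM and CDH2 were well expressed (means of 436 and 124 CPM), whereas PAX2 and LHX1 were low (0.346 and 0.974 CPM). Markers of other cell types (PTPRC, CD3E, ALB, HBB, MYH7 and KRT5) had at most 6 counts in any library. The HNE-treated shControl replicates differed most from each other, with a chi-square per degree of freedom of 22.6 against 3.02 to 10.9 in the other groups.

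Upstream sequences of MT2A and MT1X are shown because both genes were higher in shHuR cells and both hold many matches to the motif that MTF1 recognises. Sequences are the 250 bases before the RefSeq transcript start (GRCh38.p14, plus strand), matched by symbol, with matches to the metal response element in capitals. The motif was searched as TGCACNC and TGCGCNC on both strands.
MT2A, chr16:56608334-56608583: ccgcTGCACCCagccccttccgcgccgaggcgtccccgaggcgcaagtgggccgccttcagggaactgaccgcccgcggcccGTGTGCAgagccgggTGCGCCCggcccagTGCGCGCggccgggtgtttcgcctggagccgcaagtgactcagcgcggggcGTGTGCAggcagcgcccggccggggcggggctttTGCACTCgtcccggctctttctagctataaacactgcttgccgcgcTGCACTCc
MT1X, chr16:56682220-56682469: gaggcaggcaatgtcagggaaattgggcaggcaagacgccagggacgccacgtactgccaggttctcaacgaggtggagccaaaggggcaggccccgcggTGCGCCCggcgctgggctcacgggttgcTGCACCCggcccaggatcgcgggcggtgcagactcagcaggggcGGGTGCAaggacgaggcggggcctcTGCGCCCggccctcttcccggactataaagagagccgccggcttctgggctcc

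MT2A held 7 matches and MT1X held 4. Metallothionein genes with 0 counts in all 12 libraries also held matches, 8 in MT1H and 3 each in MT1B and MT4. Whether MTF1 acts through these matches in these cells was not tested. Of 35116 RefSeq promoters of this length, 24.8% held at least 1 match, 1.58% held 3 or more and 0.0513% held 6 or more. SLC30A1 held 1 match (GAGTGCA, on the opposite strand, 49 bases before the RefSeq start), and SLC39A6 held 1, 17 bases before its start. The windows of MTF1 and SLC39A10 held no match. These counts depend on the annotation of the start. The GENCODE release 29 start lies 419 bases from the RefSeq start for SLC30A1 and 385 bases for MT2A, where it is upstream of the window shown. For SLC39A10 it lies 80981 and 81249 bases from the 2 RefSeq starts. For MT1X, SLC39A6 and MTF1 the starts are 28 to 46 bases apart. MT1E, MT1F and SLC39A14 had no entry, so 6 of the 9 genes were matched.

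The antioxidant response element bound by NRF2, searched as TGACNNNGC on both strands, had 1 match each in MT2A, MT1X and SLC30A1, against 10.9% of all promoters. MTF1, SLC39A6 and SLC39A10 held none, and MT1B, with 0 counts in all libraries, held 1. No match of either motif overlapped another in these windows. The match in MT2A lay 104 bases before the start, between metal response elements.

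**Figure D1:**
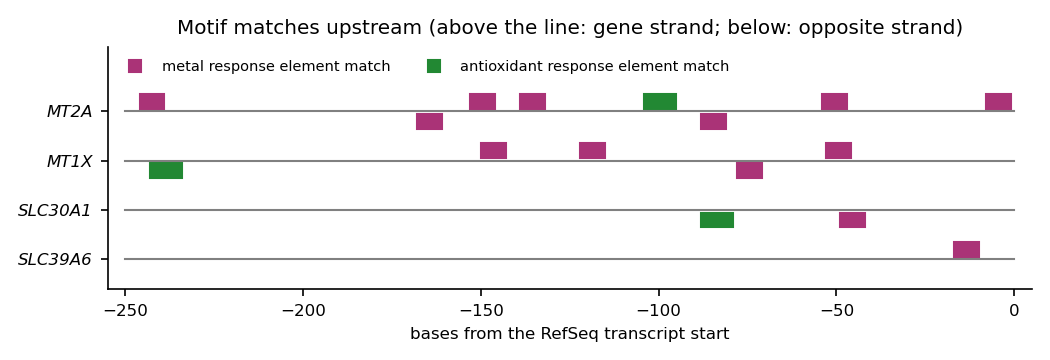
Positions of motif matches in the 250 bases before the RefSeq start of MT2A, MT1X, SLC30A1 and SLC39A6, in bases from the start; boxes above each line are on the gene's strand and boxes below on the opposite strand. MT2A carries 7 metal response element matches (magenta) and MT1X 4, while SLC30A1 and SLC39A6 carry 1 each; antioxidant response element matches are green.

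The comparison of the lines asks which transcripts differ with the HuR hairpin. SLC39A10, a plasma membrane zinc importer, fell in shHuR cells by 39.9%, and MT2A, MT1X, SLC30A1, SLC39A6 and MTF1 rose by 18.6% to 61.6%. Thus 5 of the 8 tested genes were called higher and 1 lower over all treatments, where 14.1% of 16005 tested genes were called higher and 15.9% lower (29.9% in all). SLC39A14 and MT1F did not pass. The 6 libraries of each line did not overlap for SLC39A10, SLC39A6 and SLC30A1, against 12.1% of tested genes (5.25% with shHuR higher and 6.84% lower). The median log2 fold change was 0.31 over the 8 genes and 0.00 over all tested genes (-0.00177). Calls were made with edgeR's quasi-likelihood test at an adjusted p under 0.05 over all genes tested.

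**Figure D2:**
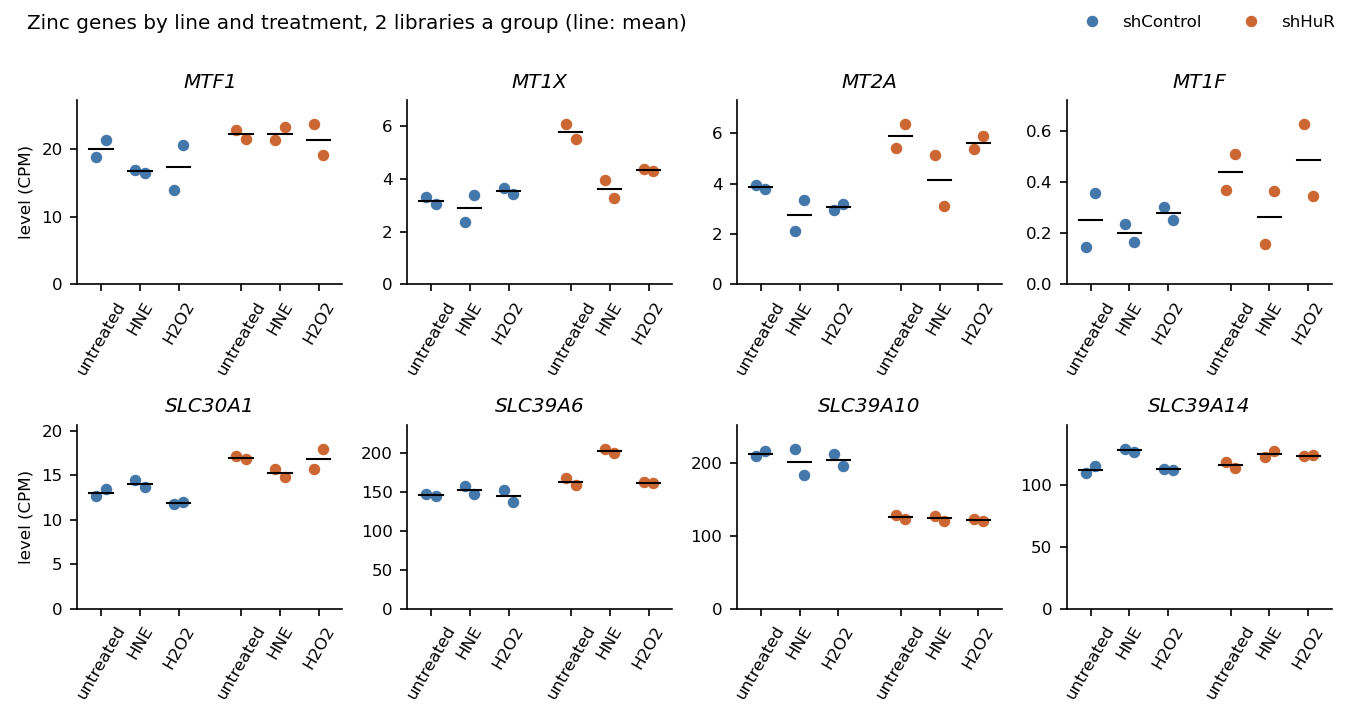
CPM of the 8 tested genes in each library, by line (blue shControl, orange shHuR) and treatment; points are libraries, black bars are the mean of 2. SLC39A10 lies at 183 to 219.5 CPM in shControl and 119.8 to 129 CPM in shHuR, while MT1X and MT2A lie higher in all shHuR groups by mean.

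MTF1, the sensor, was called higher in shHuR over all treatments. In shControl its levels were 18.8 and 21.3 CPM (untreated), 16.8 and 16.5 CPM (HNE) and 13.95 and 20.6 CPM (H2O2). In shHuR its levels were 22.8 and 21.5 CPM (untreated), 21.3 and 23.2 CPM (HNE) and 23.6 and 19.1 CPM (H2O2). The lines overlapped, most in the H2O2-treated groups, where the replicates of each line were far apart. MTF1 differed by a log2 fold change of 0.29 with the hairpin (SE 0.0873, edgeR adjusted p = 0.0197). The call was lost without replicate 1 of the H2O2-treated shHuR group (0.24, adjusted p = 0.0624) or replicate 2 of the HNE-treated shHuR group (0.26, adjusted p = 0.0572), and in limma on log2(FPKM + 1) without a filter (0.21, adjusted p = 0.0725). In single treatments MTF1 did not pass, with log2 fold changes of 0.14, 0.41 and 0.30 in untreated, HNE-treated and H2O2-treated cells (edgeR adjusted p = 0.626, 0.121 and 0.265). With HNE it passed in 3 of 22 alternatives, namely without a filter (0.42, adjusted p = 0.0160) and without either H2O2-treated shControl library (0.42 and 0.41, adjusted p = 0.0418 and 0.0449). With H2O2 it passed without replicate 2 of the H2O2-treated shControl cells (0.61, adjusted p = 0.0285), and its estimate ran from 0.06 to 0.61 over left-out libraries.

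MT2A, in many human cells the most abundant metallothionein transcript, showed the largest rise of the 5 genes called higher. Its shControl replicates had 3.93 and 3.79 CPM (untreated), 2.13 and 3.35 CPM (HNE) and 2.96 and 3.20 CPM (H2O2). Its shHuR replicates had 5.41 and 6.35 CPM (untreated), 5.15 and 3.10 CPM (HNE) and 5.36 and 5.90 CPM (H2O2). All shHuR libraries lay above all shControl libraries except replicate 2 of the HNE-treated shHuR group. Means over treatments were 3.23 ± 0.648 CPM in shControl and 5.21 ± 1.12 CPM in shHuR (SD, n = 6 each). The log2 fold change, 0.69, had an SE of 0.139 (edgeR adjusted p = 0.00122), larger in size than that of 95.02% of tested genes. In single treatments MT2A did not pass. Its log2 fold changes were 0.61, 0.60 and 0.87 in untreated, HNE-treated and H2O2-treated cells (edgeR adjusted p = 0.150, 0.179 and 0.0514).

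MT1X, a second metallothionein of the same cluster on chromosome 16, rose as well. The shControl pairs had 3.31 and 3.04 CPM (untreated), 2.37 and 3.39 CPM (HNE) and 3.64 and 3.42 CPM (H2O2). The shHuR pairs had 6.06 and 5.50 CPM (untreated), 3.97 and 3.28 CPM (HNE) and 4.37 and 4.31 CPM (H2O2). The untreated shHuR libraries were the highest, and the same HNE-treated shHuR library as for MT2A lay within the shControl range. The line difference was 0.51 on the log2 scale (SE 0.131, edgeR adjusted p = 0.00732), from 3.19 ± 0.449 to 4.58 ± 1.02 CPM (SD, n = 6 each). It was largest in untreated cells (0.86). With HNE and H2O2 it was 0.34 and 0.30 and did not pass (edgeR adjusted p = 0.357 and 0.421).

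These levels rest on few reads, 64 to 187 counts per library for MT2A and 71 to 162 for MT1X. Metallothionein genes resemble each other closely, so counting can split reads among them. Of the 75-base windows of the MT1X transcript, the read length of the study, 31.6% also occur in a transcript of another gene, MT1G and a pseudogene among them. For MT2A and MT1F it was 0%, and for MT1E 1.68% (GENCODE release 29). MT1G itself had 0 counts in 10 of 12 libraries and at most 3 counts.

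MT1E had 0 counts in 10 libraries and 1 count in each of the other 2, at or below the 3 counts that a count of 0 allows (0.1 to 0.123 CPM by library). MT1F had 4 to 17 counts per library, or 0.243 ± 0.0806 CPM in shControl and 0.394 ± 0.159 CPM in shHuR (SD, n = 6 each). The lines overlapped for MT1F, and its log2 difference, 0.67 (SE 0.374, edgeR adjusted p = 0.187) did not pass.

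SLC30A1, which exports zinc across the plasma membrane and is known as an MTF1 target, rose in shHuR. For shControl its levels were 12.6 and 13.4 CPM (untreated), 14.4 and 13.6 CPM (HNE) and 11.8 and 12.0 CPM (H2O2). For shHuR its levels were 17.2 and 16.8 CPM (untreated), 15.7 and 14.8 CPM (HNE) and 15.6 and 18.0 CPM (H2O2). All shHuR libraries lay above all shControl libraries, by the least among HNE-treated cells. Over all treatments its log2 difference was 0.33 (SE 0.0721, edgeR adjusted p = 0.00210).

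SLC39A10 and SLC39A6 encode closely related importers known to form a heteromeric complex at the plasma membrane, and they moved in opposite directions. SLC39A10 levels in shControl were 209 and 216 CPM (untreated), 219.5 and 183 CPM (HNE) and 212 and 196 CPM (H2O2). Its levels in shHuR were 129 and 123 CPM (untreated), 128 and 121 CPM (HNE) and 123 and 119.8 CPM (H2O2). The lines were far apart, and the lowest shControl library, HNE-treated replicate 2, still lay well above the highest shHuR library. On the log2 scale the difference was -0.73 (SE 0.0451, edgeR adjusted p = 7.50e-09), larger in size than that of 95.6% of tested genes. It was -0.75 untreated, -0.70 with HNE and -0.75 with H2O2 (adjusted p = 0.000200, 0.000328 and 0.000175), and it passed in each of the alternatives run.

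SLC39A6 levels in shControl were 147 and 144 CPM (untreated), 158 and 146 CPM (HNE) and 151 and 136 CPM (H2O2). In shHuR libraries its levels were 167 and 158 CPM (untreated), 205 and 199.9 CPM (HNE) and 162 and 161 CPM (H2O2). The HNE-treated shHuR libraries stood above all others, and the remaining shHuR libraries began just above the highest shControl library. Over all treatments the log2 difference was 0.25 (SE 0.0477, edgeR adjusted p = 0.000869).

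Within libraries the balance of the 2 importers differed between the lines. By FPKM, the authors' value per transcript length, the ratio of SLC39A6 to SLC39A10 was 1.09 ± 0.0741 in shControl and 2.14 ± 0.258 in shHuR (SD, n = 6 each). It ran from 1.01 to 1.23 in shControl and from 1.92 to 2.48 in shHuR, so the lines did not overlap. The highest ratios, 2.46 and 2.48, were those of HNE-treated shHuR cells. As the ratio combines both differences above, it was not tested.

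**Figure D3:**
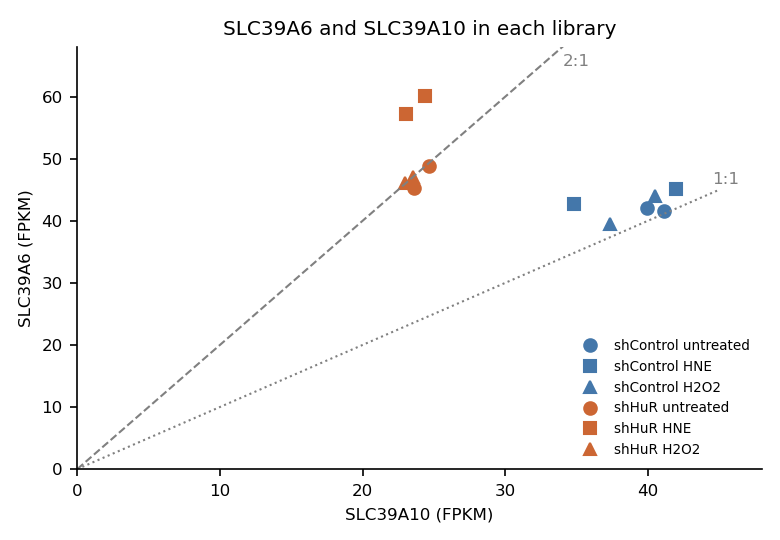
SLC39A6 against SLC39A10 in FPKM, 1 point per library, coloured by line and shaped by treatment; grey lines mark ratios of 1 to 1 and 2 to 1. The shControl libraries have ratios of 1.01 to 1.23 and the shHuR libraries 1.92 to 2.48, with HNE-treated shHuR cells highest.

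SLC39A14, an importer of zinc that also carries iron and manganese, did not pass in any comparison of the lines. Its shControl levels were 109 and 115 CPM (untreated), 129 and 127 CPM (HNE) and 113 and 112 CPM (H2O2). Its shHuR levels were 118 and 113 CPM (untreated), 123 and 127 CPM (HNE) and 123 and 124 CPM (H2O2). The ranges of the lines overlapped, and the log2 difference was 0.05 (SE 0.0388, edgeR adjusted p = 0.365).

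Within single treatments, with 2 libraries against 2, fewer genes passed. In untreated cells 3 of the 8 were called, against 7.98% of tested genes (3.5% higher and 4.48% lower). These were SLC39A10, MT1X (0.86, SE 0.203, edgeR adjusted p = 0.0210) and SLC30A1 (0.38, SE 0.109, adjusted p = 0.0475). MT1X lost its call without any 1 of the 4 untreated libraries, though its estimate stayed at 0.80 to 0.93. Each of these fits leaves 1 library in a group, and fewer genes were called in all. SLC30A1 lost its call in 10 of 22 alternatives, the replicate block among them (0.38, edgeR adjusted p = 0.0622).

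With HNE 2 of the 8 were called, against 8.27% of tested genes (3.24% higher and 5.04% lower). Besides SLC39A10 this was SLC39A6 (0.41, SE 0.0694, edgeR adjusted p = 0.00334), which missed the threshold when the compared groups were fitted alone (adjusted p = 0.0526). MT2A stood at 0.60 there (SE 0.260, adjusted p = 0.179), and its estimate ran from 0.19 to 0.94 when single libraries were left out.

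With H2O2 2 of the 8 were called, against 7.19% of tested genes (2.52% higher and 4.67% lower), SLC39A10 and SLC30A1 (0.50, SE 0.110, edgeR adjusted p = 0.0146). SLC30A1 lost its call without replicate 2 of the H2O2-treated shHuR group (0.39, adjusted p = 0.166) or replicate 1 of the H2O2-treated shControl group (0.49, adjusted p = 0.0864), and with the compared groups alone (0.50, adjusted p = 0.0602). MT2A lay at the threshold (0.87, SE 0.250, adjusted p = 0.0514) and passed in 8 of 22 alternatives.

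**Figure D4:**
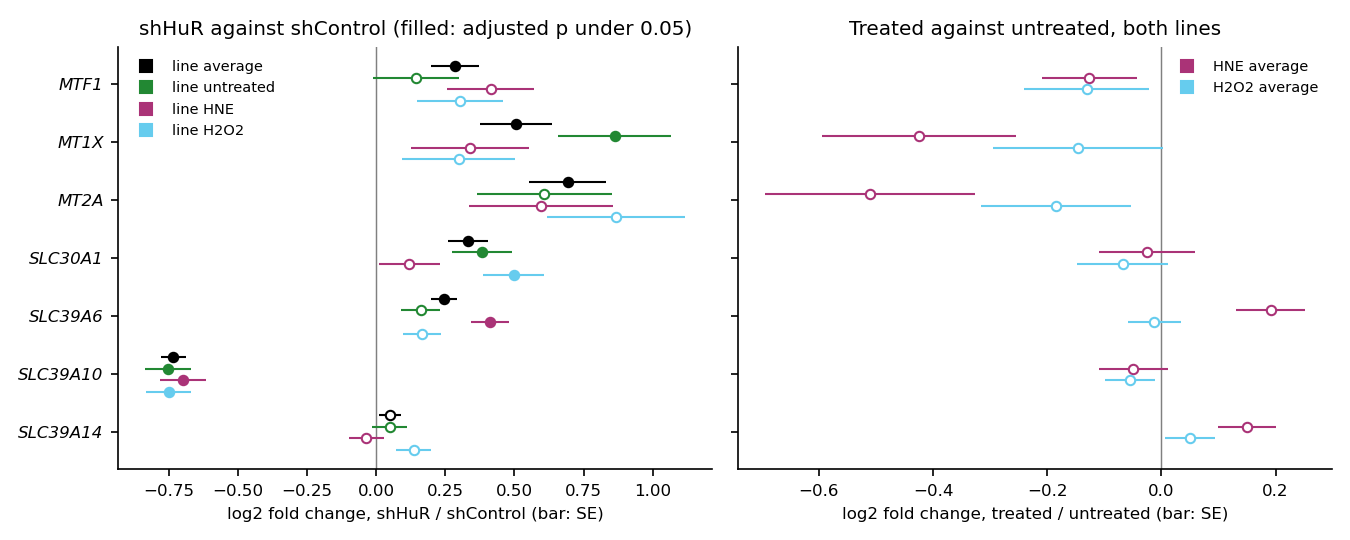
Log2 fold changes (points) with standard errors (bars) of 7 tested genes, for shHuR against shControl (left) and for treated against untreated cells over both lines (right); filled points have an adjusted p under 0.05. SLC39A10 lies near -0.7 in every line comparison, and no point is filled for HNE or H2O2.

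The response to HNE was compared over both lines, and 0 of 7 tested genes were called by edgeR, against 0.247% of 15780 tested genes (0.101% higher and 0.146% lower). DESeq2 and limma called 0 of these genes as well. At an unadjusted p under 0.05 there were 4, where 1942 of all tested genes were. MT2A and MT1X had lower means with HNE in both lines, with log2 fold changes of -0.51 (SE 0.184, unadjusted p = 0.0149, adjusted p = 0.284) and -0.42 (SE 0.170, unadjusted p = 0.0258, adjusted p = 0.336). The HNE-treated replicates were far apart for MT2A in each line, at 2.13 and 3.35 CPM in shControl and 5.15 and 3.10 CPM in shHuR.

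The other genes under that unadjusted threshold were the importers SLC39A6 (0.19, SE 0.0603, unadjusted p = 0.00691, edgeR adjusted p = 0.233) and SLC39A14 (0.15, SE 0.0508, unadjusted p = 0.0105, adjusted p = 0.255). Mean SLC39A14 levels with HNE and untreated were 128 and 112 CPM in shControl, and 125 and 116 CPM in shHuR. SLC39A6 passed once the HNE-treated shControl replicate 2 was left out (0.24, adjusted p = 0.0411), a fit that called 168 genes in all against 39 with it. MTF1, SLC30A1 and SLC39A10 had estimates of -0.13, -0.03 and -0.05, the last at 0.00578 without that same library.

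For H2O2 0 of 8 tested genes were called, against 0% of 15801 tested genes, and 0 of the 8 had an unadjusted p under 0.05. Over all tested genes 861 had one, and DESeq2 called 3 genes and limma 2, with 0 of the 8 among them. Estimates ran from -0.18 for MT2A (SE 0.131) to 0.13 for MT1F (SE 0.437).

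The interaction term asks whether the response differed between the lines, and 0 of the 8 genes were called by edgeR for HNE and 0 for H2O2, against 0% of 16005 tested genes for each. DESeq2 and limma called 0 of the 8 in each. For HNE 1 of the 8 had an unadjusted p under 0.05, where 1077 of 16005 tested genes had one. It was SLC39A6 (0.25, SE 0.0981, edgeR unadjusted p = 0.0226, adjusted p = 0.712). Its level went from 163 ± 6.43 to 202 ± 3.70 CPM in shHuR and from 146 ± 2.22 to 152 ± 8.05 CPM in shControl (SD, n = 2 each). For MT1X the estimates were -0.52 for HNE (SE 0.294, unadjusted p = 0.0970) and -0.56 for H2O2 (SE 0.288, unadjusted p = 0.0707). They share the untreated libraries, where MT1X was highest in shHuR.

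Levels were set side by side between genes by FPKM, which rests on the transcript length used in the authors' processing. For MT1X a mean of 3.89 CPM stood at 19.0 FPKM, and for MT2A 4.22 CPM stood at 19.2 FPKM. The GENCODE release 29 transcripts of 450 and 581 bases would give lower values for both. SLC30A1 had a mean of 14.7 CPM at 7.90 FPKM, and its GENCODE transcript of 5474 bases would also give a lower value. The places of MT1X and MT2A beside the longer transporter transcripts, and that of SLC30A1, therefore depend on the length used. Over all libraries SLC39A6 stood highest of the 9 (mean of 46.6 FPKM), followed by SLC39A10 (31.5), SLC39A14 (26.0), MT2A (19.2), MT1X (19.0), SLC30A1 (7.90), MTF1 (2.51), MT1F (1.31) and MT1E (0.0203). MT2A and MT1X, with ranges of 9.71 to 28.9 and 11.6 to 29.7 FPKM, could not be ordered. In shControl the ranges of SLC39A6 (39.5 to 45.2 FPKM) and SLC39A10 (34.8 to 41.9 FPKM) overlapped. SLC39A10 lay above SLC39A14 in 6 of 6 shControl libraries and in 0 of 6 shHuR libraries. The order over all libraries does not hold within shHuR, where MT2A (23.7 ± 5.11 FPKM), SLC39A10 (23.7 ± 0.700 FPKM) and MT1X (22.4 ± 5.01 FPKM) differed by less than their spread (SD, n = 6 each). In untreated shHuR cells mean levels were 28.3 FPKM for MT1X, 26.8 FPKM for MT2A, 25.3 FPKM for SLC39A14 and 24.1 FPKM for SLC39A10.

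The families were then taken whole, from lists by family and not by how their genes moved. Of 16 metallothionein genes and pseudogenes 15 were in the table and 3 were tested, all of them described above. MT1A, MT1B, MT1G, MT1H, MT1IP, MT1L, MT1M, MT1DP, MT1JP, MT3 and MT4 were too low to judge, as were SLC30A2, SLC39A2 and SLC39A12. MT1HL1 was not analysed here.

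Of 12 tested importer genes 6 were called higher in shHuR over all treatments, 1 lower and 5 did not pass, beside 14.1% higher and 15.9% lower of all tested genes. SLC39A5, among the 5, had 4 to 19 counts per library and was too low for its difference to be read. SLC39A4 is the intestinal importer mutated in acrodermatitis enteropathica, and SLC39A7 releases zinc from the endoplasmic reticulum. Besides SLC39A6 the genes called higher were SLC39A4 (0.45, SE 0.109, edgeR adjusted p = 0.00463), SLC39A7 (0.24), SLC39A3 (0.21), SLC39A9 (0.19) and SLC39A1 (0.15). Adjusted p of the latter 4 were 0.00185 to 0.0173. SLC39A10 was the 1 that fell. SLC39A3 and SLC39A9 also passed in untreated cells (0.41 and 0.25, adjusted p = 0.00912 and 0.0403).

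Of 9 tested exporter genes 2 were called higher, 1 lower and 6 did not pass. SLC30A8, among the 6, had 0 to 18 counts per library and was likewise too low. SLC30A3, the zinc transporter of synaptic vesicles, rose with SLC30A1 (0.52, SE 0.137, edgeR adjusted p = 0.00873), at 2.36 ± 0.366 CPM in shControl and 3.38 ± 0.406 CPM in shHuR (SD, n = 6 each). SLC30A9, a mitochondrial zinc transporter and the most abundant of the family by FPKM, fell slightly (-0.12, SE 0.0436, adjusted p = 0.0443). Among the 17 tested genes of these lists outside the 9, 7 were thus called, or 6 higher and 1 lower, beside 14.1% and 15.9% of all tested genes. For HNE and H2O2 0 of the 17 were called by edgeR, with 2 at an unadjusted p under 0.05 for each. Over all genes 1942 of 15780 had one for HNE and 861 of 15801 for H2O2.

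**Figure D5:**
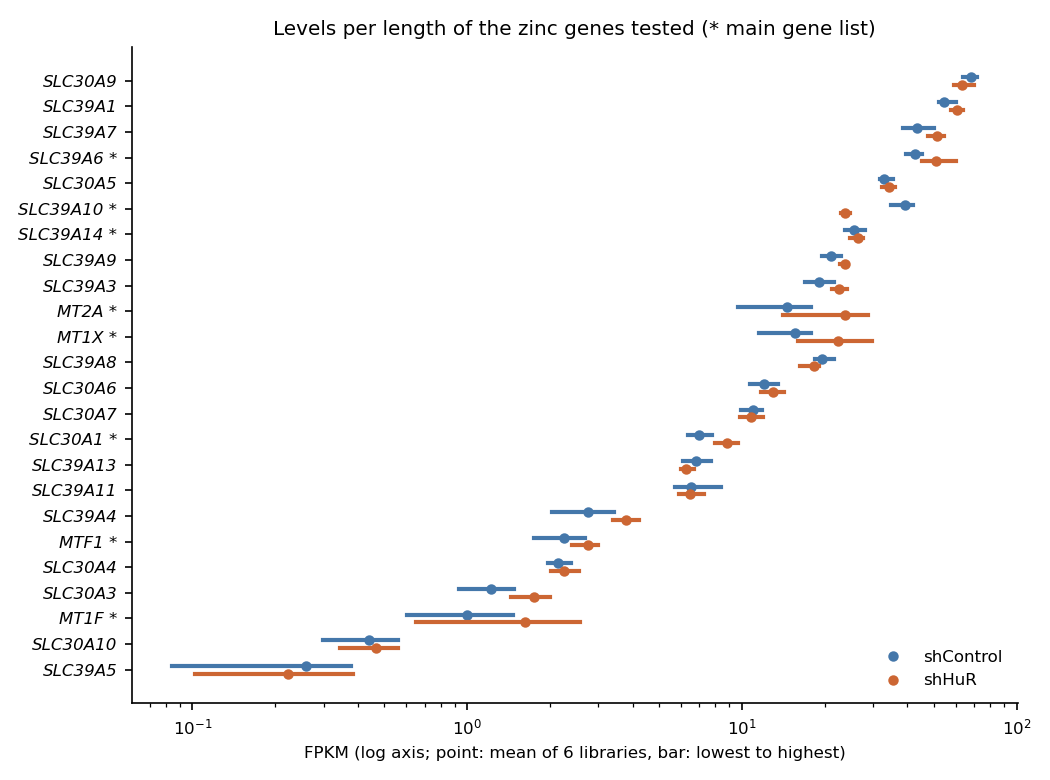
FPKM (log axis) of tested zinc genes with counts in every library, as the mean of 6 libraries (point) with the lowest and highest (bar) for each line; asterisks mark genes of the main list. The SLC39A10 bars lie apart, at 34.8 to 41.9 FPKM in shControl and 22.9 to 24.7 FPKM in shHuR.

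HuR is known to bind AU-rich and U-rich stretches of 3′ UTRs, so short motifs of both kinds were counted in GENCODE release 29 transcripts. A protein-coding transcript was matched for 85.0% of tested genes, and medians and motif shares are over these. Any matched gene without an annotated 3′ UTR counts as holding no match. The pentamer ATTTA occurred 13 times in the 2661 bases of SLC39A10, 17 times in the 3820 bases of SLC30A1 and 6 times in the 1061 bases of SLC39A6. That is 4.89, 4.45 and 5.66 per kilobase, beside a median of 1.49 over tested genes, of which 66.7% held at least 1. MTF1 and SLC39A14 had 1.26 and 1.31 per kilobase, and the 4 metallothionein genes had none. The longer TATTTAT occurred 2 times each in SLC30A1 and SLC39A10 and in none of the other 7, beside 30.9% of tested genes with at least 1. Runs of 7 T, counted at every overlapping position, occurred 18 times in SLC39A10, 15 times in the 147 bases of MT1X, 7 times in MTF1, 4 times in MT1F, 2 times each in SLC30A1 and SLC39A14 and 1 time in MT1E. MT2A and SLC39A6 held none, and 45% of tested genes held at least 1. These shares of genes take no account of the length of the 3′ UTR. The authors' annotation is not given, so the 3′ UTRs in their counts may differ from these. The 3 genes richest in the pentamer included 1 that fell (SLC39A10) and 2 that rose (SLC30A1 and SLC39A6). Whether HuR binds these transcripts or acts on them was not tested.

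The guide strand of the HuR hairpin, shown because its seed could also pair with other transcripts, is taken from the labels with its seed (bases 2 to 8) in capitals.
shHuR guide: tGCAAACTtcactgtgatggg
The seed's complement, AGTTTGC, occurred in the 3′ UTR of 10.5% of the tested genes with a matched transcript. SLC30A1 held 2 matches, MTF1 held 1 and the other 7 genes held none. The 3′ UTRs of SLC30A1 and MTF1 are long, at 3820 and 5569 bases beside a median of 982. A long 3′ UTR has more room for a match. Whether the hairpin acts on these transcripts through its seed was not tested.

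For the 5 genes with a mean of at least 10 CPM, the 3 genes with the most similar log2 CPM over the 12 libraries were listed, as a description. SLC39A10 was most like SOAT1, ZBTB10 and CDK6, each with Pearson's r of 0.99 and each lower in shHuR (log2 fold changes of -0.50, -0.53 and -0.76). SLC39A6 was most like FAM168B (0.96), ITGAV (0.94) and PTBP2 (0.94). SLC30A1 was most like IRAK2 (0.96), SYP (0.94) and HYPK (0.94). Those listed for MTF1 included VGLL2 (0.93) and STX5 (0.92). SLC39A14 was most like AGAP7 (0.94), ZNF230 and LOC96610 (0.89 each). VGLL2 and AGAP7 had means of only 0.278 and 0.264 CPM, too low for their likeness to be read. The 12 libraries fall into the 2 lines, and these correlations include the difference between them.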

How the data were processed

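Gene-level estimated counts and, in a separate table, FPKM values were deposited by the authors for each of the 12 libraries. The submitters' processing notes name cutadapt 1.8, Bowtie2 2.2, TopHat2 2.1, Cufflinks 2.2, Cuffnorm and Cuffdiff with GRCh37 (hg19). The annotation and whether counting used strand are not given in the sources used here. Of the deposited estimated counts 2.25% were fractional, in 701 genes, and they were rounded; all genes on the zinc lists had whole counts. The deposited FPKM values, scaled by the authors to length and library size, served for levels between genes and alternative fits.

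Genes were filtered with filterByExpr (minimum count 10; 16005 kept), scaled with TMM and tested with edgeR 4.0.16 (quasi-likelihood F-test, Benjamini-Hochberg over all genes tested, threshold 0.05). Line differences and interactions used 12 libraries. The HNE and H2O2 averages used 8, with line as covariate. The SE is the log2 fold change divided by the square root of F. Alternatives used DESeq2 1.42.0, limma 3.58.1, other scalings and filters, a replicate block, and left-out libraries. The limma fold changes are on a log2(FPKM + 1) or log2(FPKM + 0.1) scale, which understates low genes.

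The 9 genes and the lists were chosen with earlier results of these data known. Outside the 9, genes of the lists called in any comparison are named, and the 3 most similar genes of each with at least 10 CPM. Among the similar genes of MTF1 and the cell line markers, 1 gene each is not reported here. Promoters came from RefSeq (GRCh38.p14) and transcripts from GENCODE release 29 (GRCh38). They were matched by symbol, since the counts were made on another build. A floor of 3 counts covers counting error only.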

Additional observations from a re-analysis of the deposited data

Results flagged for a closer look

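In shHuR cells MT2A had 1 library far from the other 5. Replicate 2 of the HNE-treated group had 3.10 CPM, where the next lowest had 5.15 CPM, a gap of 0.631 of the whole range. This exceeds Dixon's 95% critical value for 6 values. The 6 libraries span 3 treatments. Chance flags about 1 in 20 such sets, and 16 were examined. MT1X was also lowest in this library among shHuR cells, at 3.28 CPM. Without it the line difference of MT2A over all treatments was 0.78 on the log2 scale, against 0.69 with it.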

How the results depend on the processing

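Over all treatments 6 of the 9 genes were called in the line comparison, and 5 to 6 in the 21 alternatives. In untreated cells 3 were called, and fewer in some fits with a library left out. With H2O2 it was 2, and fewer or more in such fits. Calls over all genes also fell without any single untreated library. With H2O2 they fell without replicate 2 of the H2O2-treated shHuR group or replicate 1 of the H2O2-treated shControl group. With HNE it was 2, and 2 or more in such fits, and 3 without a filter. With the compared groups fitted alone it was 1, where 204 of 15316 tested genes were called in all against 1324 of 16005. For the HNE response 0 were called, and 0 to 1 with a library left out. Counts for the other zinc genes ran from 5 to 7.

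Estimates near 0 changed sign with a library left out. For HNE these were SLC30A1 (-0.0686 to 0.0188) and SLC39A10 (-0.0985 to 0.00578), and for H2O2 SLC39A6 (-0.0434 to 0.0182). HNE interactions were MT2A (-0.419 to 0.332) and SLC39A10 (-0.0720 to 0.203). H2O2 interactions were MTF1 (-0.0884 to 0.470), SLC39A10 (-0.04998 to 0.0620) and SLC39A6 (-0.0667 to 0.0866). The last was 0.00565 with all libraries, -0.00889 with limma on log2(FPKM + 1), with or without a filter, and -0.00900 on log2(FPKM + 0.1). The cause was not tested.

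Replicate numbers showed no clear shared effect, with same-numbered deviations correlated between groups at -0.11 to 0.13. Whether same-numbered samples were handled together cannot be read from these correlations. With the replicate block 6 were still called over all treatments, and 2 in untreated cells, where SLC30A1 did not pass (adjusted p = 0.0622).

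Depth limits MT1E and MT1F, and other metallothionein genes at 0 to 10 counts.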
